A study of Drosophila melanogaster with 2 samples.

Results

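The Enhancer of split complex is a cluster of Notch target genes on arm 3R of the Drosophila melanogaster genome, and binding of the transcription factor gem was described at 10 of its genes. The 10 genes were taken by name: E(spl)mdelta-HLH, E(spl)mgamma-HLH, E(spl)mbeta-HLH, E(spl)m3-HLH, E(spl)m5-HLH, E(spl)m7-HLH, E(spl)m8-HLH, E(spl)m2-BFM, E(spl)m4-BFM and E(spl)malpha-BFM. All 10 were found among the 13945 protein-coding genes. A peak belonged to the complex when its summit lay inside a member gene or within 2000 bp of it, and it was given to the member with the nearest transcription start site (TSS). By this rule the complex held 11 of the 11045 peaks of the IDR list. That list was made with the irreproducible discovery rate, a method based on how well peak ranks hold between replicates. Not every peak in it was matched in both replicates: 10416 of the 11045 had a summit within 100 bp in each. In the list called on both replicates pooled, the complex held 25 of 30000 peaks. In replicate 1 it held 25 of 30000, and in replicate 4 it held 22 of 30000.

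Chromatin immunoprecipitation with sequencing was performed with an antibody against GFP on whole embryos aged 0 to 24 h, both sexes together, from a transgenic strain whose gem protein carries GFP at its C-terminus. There was 1 group, with 2 biological replicates numbered 1 and 4, and no second genotype, treatment or untagged strain. Which promoter drives the tagged gene is not given in the sources used here. With 1 group no condition could be tested, so the values below are descriptions beside the same measure over all genes or all peaks. The signal of a peak is the peak caller's own value, its scaling is not stated, and the number of reads behind it is unknown. Whole embryos mix many cell types, so a site bound in few cells and a site bound weakly in many cannot be told apart, and transcription was not measured.

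When Notch binds its ligand, the intracellular part of the receptor enters the nucleus and activates transcription with the DNA-binding protein Su(H) and the coactivator mam. The genes of the Enhancer of split complex are among its best known targets in neural and sensory precursor fields. The HLH members encode basic helix-loop-helix-Orange repressors, which recruit the corepressor encoded by the neighbouring gene gro and silence proneural genes. The BFM members encode Bearded family proteins, which inhibit neur, a ubiquitin ligase needed for signalling by the ligand Delta. Gem is a CP2-type relative of the epidermal regulator grh.

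Strong peaks stood close upstream of 4 of the 10 members: 3 repressor genes, E(spl)m3-HLH, E(spl)m7-HLH and E(spl)mdelta-HLH, and the Bearded family gene E(spl)m2-BFM. Their summits lay between 365 and 499 bp upstream of the TSS, and their signals ran from 1857 to 4217. E(spl)malpha-BFM and E(spl)m8-HLH had IDR peaks farther away. E(spl)mgamma-HLH, E(spl)mbeta-HLH, E(spl)m5-HLH and E(spl)m4-BFM had none. A promoter peak, with its summit within 500 bp of a TSS, was thus present at 4 of 10 members, against 24.6% of all protein-coding genes (3432 of 13945). An IDR peak in the gene or within 2000 bp was present at 6 of 10 members, against 43.9% of all protein-coding genes (6121 of 13945). With 10 genes, each member moves these shares by 10 percentage points. All 10 members have 1 annotated exon and 1 TSS, and among the 1806 protein-coding genes of 1 exon 9.97% had a promoter peak.

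**Figure D1:**
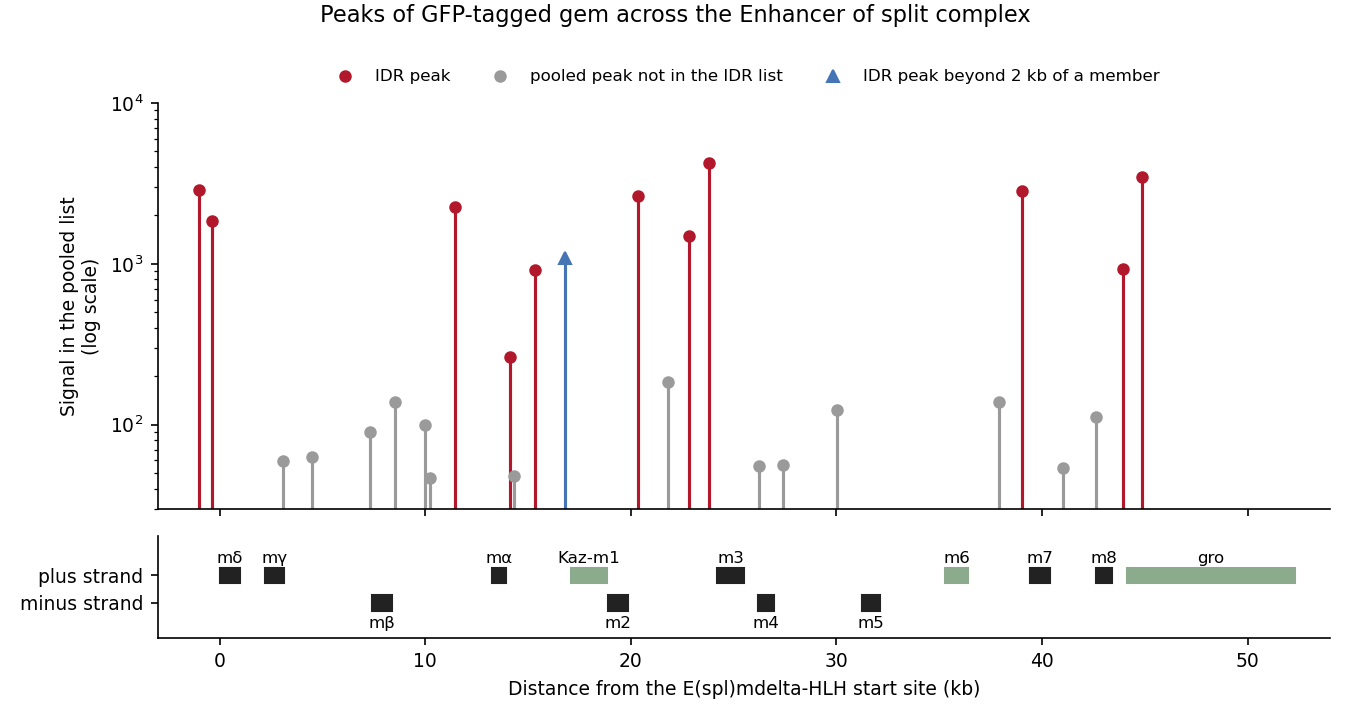
Signal of gem-GFP peaks in the pooled list (vertical axis, log scale) by distance from the E(spl)mdelta-HLH start site in kb, with the 10 members as black boxes and 3 other genes of the cluster in green, on the plus and minus strands. Red stems are the 11 IDR peaks of the complex, grey stems the 14 pooled peaks outside the IDR list, and the triangle is an IDR peak of 1083 just beyond 2000 bp; the red stems stand on either side of a stretch of 15240 bp that holds grey stems only.

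The highest signal of the complex belonged to E(spl)m3-HLH, a repressor gene on the plus strand (FBgn0002609, chr3R:26021823-26023127, dm6). Its peak at chr3R:26021123-26021671 was intergenic, with the summit 411 bp upstream of the TSS and a signal of 4217. It ranked 204 in the IDR list, 206 in replicate 1 with a signal of 3016, and 188 in replicate 4 with a signal of 1214. The nearest TSS of any annotated gene belonged to the noncoding RNA gene lncRNA:CR43644, 336 bp from the summit. A further peak of E(spl)m3-HLH, at chr3R:26020259-26020614, had its summit 1383 bp upstream with a signal of 1499, and it lay 636 bp downstream of the same noncoding start. Both peaks of this repressor gene were thus recovered in each replicate.

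E(spl)m7-HLH, also a repressor gene (FBgn0002633, chr3R:26037038-26038019, plus strand), had 1 IDR peak, at chr3R:26036420-26036895. Its summit lay 386 bp upstream, and no other annotated TSS was nearer. The signal was 2826 at rank 438 of the IDR list, with 2204 at rank 388 in replicate 1 and 635 at rank 687 in replicate 4. E(spl)mdelta-HLH, the first repressor gene at the left end of the cluster (FBgn0002734, chr3R:25997621-25998633, plus strand), had a peak on each side of a neighbouring start. The summit 365 bp upstream, in the peak chr3R:25997025-25997474, had a signal of 1857 at rank 929, with 1434 in replicate 1 and 426 in replicate 4. The summit 1002 bp upstream, in chr3R:25996408-25996836, had a signal of 2871 at rank 424, with 2256 in replicate 1 and 619 in replicate 4. The peak of 2871 lay in an intron of CG43116, whose TSS was nearer than that of E(spl)mdelta-HLH to both summits, at 260 and 377 bp. By position, peaks of this repressor gene and of CG43116 cannot be told apart.

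E(spl)m2-BFM (FBgn0002592, chr3R:26016514-26017470, minus strand) was the Bearded family member with a promoter peak. Its intergenic peak at chr3R:26017714-26018197 had a signal of 2628 at rank 525, with 2069 at rank 441 in replicate 1 and 559 at rank 844 in replicate 4. The summit lay 499 bp upstream in the IDR list, 496 bp in replicate 1 and 505 bp in replicate 4, so it straddled the limit of 500 bp. The 4 promoter peaks thus ranked from 206 to 839 in replicate 1 and from 188 to 1309 in replicate 4, and only the call of E(spl)m2-BFM turned on a few bases. With a limit of 250 bp no member had a promoter peak, and with 1000 bp 5 members had one, the fifth being E(spl)malpha-BFM with a summit downstream of its start. Among all 3361 promoter summits of the IDR list, 2739 were upstream of the nearest TSS of any annotated gene, with a median distance of 172 bp. Of the 3361, 398 (11.8%) lay 350 to 500 bp upstream. By that measure the E(spl)m7-HLH and E(spl)m2-BFM summits stayed at 386 and 499 bp. The E(spl)m3-HLH summit was instead 336 bp upstream of lncRNA:CR43644, and that of E(spl)mdelta-HLH 260 bp upstream of CG43116.

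The sequences under the 4 promoter summits are shown because they are the sites nearest the starts of members and differ in their runs of A and T. Each is 101 bp of the release 6 genome (RefSeq sequence, dm6 coordinates) centred on the summit and written 5' to 3' on the strand of the gene, with runs of at least 8 A or T in capitals.
E(spl)m3-HLH, 411 bp upstream, chr3R:26021362-26021462, plus strand: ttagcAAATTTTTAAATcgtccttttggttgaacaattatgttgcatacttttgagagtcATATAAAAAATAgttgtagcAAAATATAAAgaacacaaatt
E(spl)m7-HLH, 386 bp upstream, chr3R:26036602-26036702, plus strand: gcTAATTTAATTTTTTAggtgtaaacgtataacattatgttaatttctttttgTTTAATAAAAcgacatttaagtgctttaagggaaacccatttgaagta
E(spl)mdelta-HLH, 365 bp upstream, chr3R:25997206-25997306, plus strand: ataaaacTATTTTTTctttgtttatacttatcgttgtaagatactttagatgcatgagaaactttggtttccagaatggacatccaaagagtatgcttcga
E(spl)m2-BFM, 499 bp upstream, chr3R:26017919-26018019, minus strand: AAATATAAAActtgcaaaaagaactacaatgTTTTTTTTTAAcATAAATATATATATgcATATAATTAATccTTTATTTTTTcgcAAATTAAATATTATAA
In the E(spl)m2-BFM window 72 of the 101 bases stood in such runs, and 14.9% of bases were G or C. The window of E(spl)m3-HLH had 34 bases in runs, that of E(spl)m7-HLH 25 and that of E(spl)mdelta-HLH 8, with GC contents of 24.8%, 24.8% and 30.7%. The A and T runs were therefore longest under the Bearded family gene and shortest under E(spl)mdelta-HLH.

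E(spl)malpha-BFM (FBgn0002732, chr3R:26010893-26011568, plus strand), another Bearded family gene, had 3 IDR peaks and none within 500 bp of its start. The strongest, at chr3R:26008869-26009293, had its summit 1821 bp upstream with a signal of 2250 at rank 679, and its replicate summits fell on the same base. It gave 1618 at rank 691 in replicate 1 and 638 at rank 683 in replicate 4. Of the 2 peaks on the other side of the gene, the one 835 bp downstream of the start, at chr3R:26011526-26011929, had the lowest signal of the complex, 262 at rank 8512, with 189 in replicate 1 and 78.2 in replicate 4. Its replicate summits were 93 bp apart, the widest gap at the complex. The peak 2081 bp downstream, at chr3R:26012831-26013145, had 915 at rank 2510, with 696 in replicate 1 and 207 in replicate 4, and lay nearer to the start of the protease inhibitor gene Kaz-m1, at 1747 bp. These downstream windows are shown as the extremes of base composition outside the promoters, with capitals as above.
E(spl)malpha-BFM, 2081 bp downstream, chr3R:26012924-26013024, plus strand: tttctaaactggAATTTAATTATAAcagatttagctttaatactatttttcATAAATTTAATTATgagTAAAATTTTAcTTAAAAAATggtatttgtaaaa
E(spl)malpha-BFM, 835 bp downstream, chr3R:26011678-26011778, plus strand: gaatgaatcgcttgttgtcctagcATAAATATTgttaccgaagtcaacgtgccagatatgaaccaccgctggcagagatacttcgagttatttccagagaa
The weaker peak had 42.6% GC, the highest of the 11 windows, and the stronger 15.8%.

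E(spl)m8-HLH (FBgn0000591, chr3R:26040240-26041008, plus strand), a repressor gene beside gro, had 2 IDR peaks under the rule, both of them on the gro side. The peak at chr3R:26042258-26042698 had a signal of 3481 at rank 308, with 2539 at rank 294 in replicate 1 and 949 at rank 322 in replicate 4. It lay in an intron of gro, 2264 bp from the E(spl)m8-HLH start and 137 bp from a start of gro. The peak at chr3R:26041392-26041735 had 923 at rank 2487, with 689 in replicate 1 and 244 in replicate 4, and was 166 bp from a start of gro. At the E(spl)m8-HLH start itself the pooled list held a summit 6 bp downstream, in the 5' UTR, with a signal of 112, and replicates 1 and 4 gave 77.9 and 34.7. By distance, then, the strong peaks beside E(spl)m8-HLH were promoter peaks of the corepressor gene. Over the whole complex, the nearest TSS of any gene was a member's for 4 of the 11 IDR peaks.

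E(spl)mgamma-HLH, E(spl)mbeta-HLH, E(spl)m5-HLH and E(spl)m4-BFM, 3 repressor genes and a Bearded family gene, had pooled peaks below the IDR threshold only. The lowest signal in the IDR list was 187. E(spl)mbeta-HLH (FBgn0002733, chr3R:26005046-26006023, minus strand) had 4 pooled peaks from 46.9 to 139, the highest 144 bp upstream of its start. That summit gave 80.9 at rank 14984 in replicate 1 and 72.7 at rank 10012 in replicate 4, so it was among the 11045 strongest of replicate 4 and not of replicate 1. E(spl)m5-HLH (FBgn0002631, chr3R:26028854-26029735, minus strand) had 1 pooled peak of 123, 2085 bp downstream, with its highest peaks at 108 in replicate 1 and 25.4 in replicate 4. E(spl)mgamma-HLH (FBgn0002735, chr3R:25999851-26000761, plus strand) had pooled peaks of 59.9, in its 3' UTR, and 62.9, and E(spl)m4-BFM (FBgn0002629, chr3R:26023821-26024579, minus strand) had 55.6, in its 3' UTR, and 55.9, with the summit 438 bp upstream. Replicate 4 listed no peak at E(spl)mgamma-HLH or E(spl)m4-BFM. The 14 pooled peaks of the complex outside the IDR list had a median signal of 76.8 and ran from 46.9 to 185, and the highest of them, 1954 bp upstream of E(spl)m2-BFM at rank 11123, fell just short of the IDR list. Counting pooled peaks, 7 of 10 members had a summit within 500 bp of the TSS, against 35.0% of all protein-coding genes, and 10 of 10 had a peak in the gene or within 2000 bp, against 53.9%.

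The IDR peaks of the complex stood high in the list. Their median signal was 2250, with quartiles of 1211 and 2849, against a median of 432 and quartiles of 271 and 855 over all 11045 IDR peaks. Of the 11 peaks, 10 were above the median of the list, 7 were among its 1000 strongest (9.05% of all IDR peaks) and 4 among its 500 strongest (4.53%). The median rank was 679, or 6.15% of the list. The median width of the 11 peaks was 429 bp, against 330 bp over all IDR peaks. Width did not simply follow signal: the weakest of the 11 and each weaker pooled peak of the complex outside the IDR list were 404 bp wide. The −log10 q-value, as deposited, was at its ceiling in 11 of 11 peaks of the complex and in 88.0% of all IDR peaks, and so did not separate them. No peak summit of the IDR list lay in a coding exon or UTR of the complex: 9 of the 11 were intergenic and 2 were in introns, of CG43116 and gro.

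All 11 IDR peaks of the complex were found again, with summits within 100 bp, in both replicates when each was cut to its 11045 strongest peaks, against 79.6% of all IDR peaks (8788 of 11045). The replicate summits were a median of 8 bp apart at the complex and 16 bp over all matched IDR peaks. The IDR list was made from these 2 replicates, so recovery in them is not independent evidence. The comparison was with all IDR peaks and not with peaks of like signal, and 10 of the 11 were above the list median. Signal in replicate 1 was 2.41 to 3.70 times that in replicate 4 at the complex, with a median of 2.98, against a median of 2.44 over 10416 matched peaks, whose quartiles were 2.03 and 2.91. By rank, 9 of 11 peaks of the complex stood higher in replicate 1 than in replicate 4, against 57.1% of matched IDR peaks. The E(spl)m3-HLH peak 411 bp upstream and the E(spl)malpha-BFM peak 1821 bp upstream were the 2 that stood higher in replicate 4. In the 11045 strongest peaks of replicate 1, E(spl)mdelta-HLH, E(spl)m3-HLH, E(spl)m7-HLH and E(spl)m2-BFM had a promoter peak, 4 of 10 against 24.5% of protein-coding genes. In those of replicate 4 it was E(spl)mdelta-HLH, E(spl)mbeta-HLH, E(spl)m3-HLH and E(spl)m7-HLH, 4 of 10 against 27.4%. The same number in each replicate thus covered different members, with 3 in common. In replicate 4 the E(spl)m2-BFM peak still had a signal of 559, with its summit 505 bp upstream, just beyond the limit. The E(spl)mbeta-HLH peak had 72.7 at rank 10012. In replicate 4 alone the median rank of the 12 peaks of the complex, with that E(spl)mbeta-HLH peak among them, was 9.75% of the list. In replicate 1 alone it was 6.26%, over 11 peaks, so the 2 medians are not over the same peaks.

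**Figure D2:**
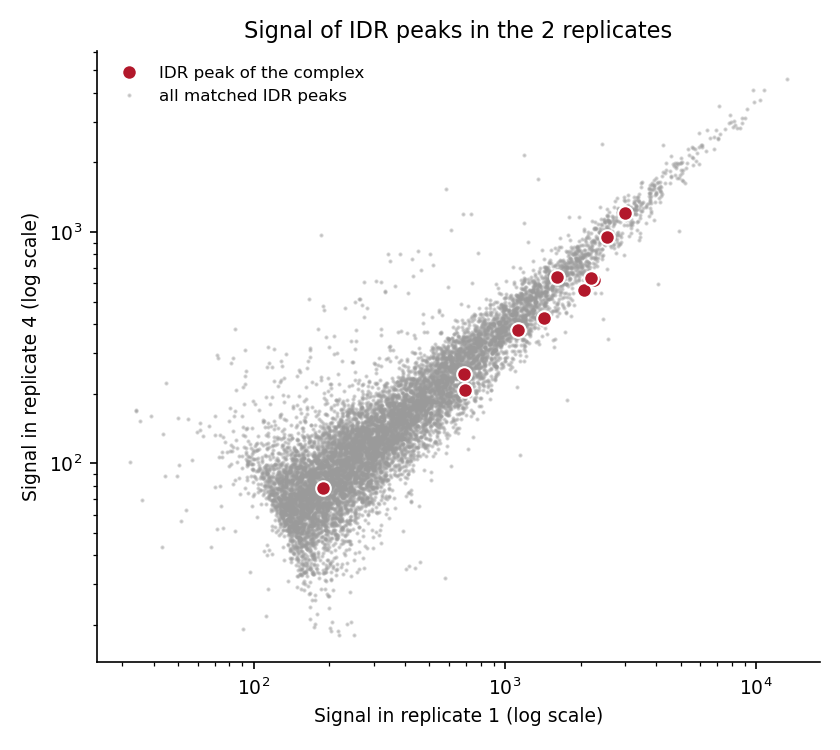
Signal in replicate 1 (horizontal axis, log scale) and replicate 4 (vertical axis, log scale) for the 11 IDR peaks of the complex (red) and all matched IDR peaks (grey). The red points lie in the upper range of the grey cloud except the weakest, 189 in replicate 1 and 78.2 in replicate 4, and several lie towards its lower right edge.

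Within the complex the IDR summits were unevenly spread. Over the 47388 bp from 2000 bp before the first member to 2000 bp after the last, 12 IDR summits lay, or 2.53 per 10 kb, including 1 of signal 1083 that was 289 bp upstream of Kaz-m1 and 82 bp beyond the limit for a member. The nearest peak inside the limit, that 1821 bp upstream of E(spl)malpha-BFM, was 179 bp within it. Windows of the same length along the arms had a median of 0.633 per 10 kb, and 149 of 2822 windows (5.28%) had at least as many. No IDR summit lay in the 15240 bp between the E(spl)m3-HLH and E(spl)m7-HLH promoter summits, from 26021412 to 26036652. This stretch holds the genes E(spl)m3-HLH, E(spl)m4-BFM, E(spl)m5-HLH and E(spl)m6-BFM, a Bearded family gene that was not among the 10. It had 6 pooled peaks, with signals from 55.6 to 138. The stretch was thus poor in strong peaks within a dense cluster, but of all 11039 gaps between neighbouring IDR summits 19.8% were at least as long, and the median gap was 3967 bp.

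The letters of 12 short motifs were searched on both strands in the 101 bp around each IDR summit, and none of the 11 windows of the complex held any. The motifs were AACCGGTT and, contained in it, ACCGGTT, written for grh and CP2 proteins, and a CP2 direct repeat, CCAG followed by CCAG after a spacer of any 6 bases. For Notch signalling they were GTGGGAA and GTGAGAA, forms of the Su(H) site, CACGTG and CACGCG, bound by bHLH repressors, and CAGCTG and CAGGTG, bound by proneural factors. The remaining letters were CAGGTA for Zelda, GAGAGAG for the product of Trl and TATCGATA for DREF. Over all 11045 IDR windows each of the 12 was rare, from 0.163% for the direct repeat and 0.244% for AACCGGTT to 2.14% for CAGCTG, and 9.17% held any. Absence of these letters from the 11 windows says nothing about which protein bound. In windows of 100 bp to either side, 1 match appeared, GTGAGAA at the E(spl)m3-HLH summit 1383 bp upstream. In the pooled list, with 50 bp to either side, CACGTG was found at the summit 438 bp upstream of E(spl)m4-BFM and CACGCG at that 1595 bp downstream of the E(spl)m7-HLH start.

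The base composition of the 11 summit windows varied widely. Their GC content ran from 14.9% to 42.6%, with a median of 25.7%, and the longest run of A and T was 8 to 19 bp, with a median of 14. Over all IDR windows the median GC content was 28.7%, with quartiles of 24.8% and 33.7%, and the median longest run was 11 bp. Low GC content at the summit is thus a property of the whole list, and the complex lay within its range. Mean GC content rose away from the summits both over the 11 peaks of the complex and over all IDR peaks. At the summit it was 27.1% at the complex, against 29.3% over all IDR peaks. At 100 bp to the left and right it was 35.3% and 35.8%, against 37.8% and 38.2%. At 500 bp to the left and right it was 53.1% and 44.8%, against 43.5% and 43.3%.

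The 4 members with a promoter peak and the 6 without differed in the position of Su(H) matches upstream. All 10 had GTGGGAA or GTGAGAA on either strand within 2000 bp upstream, as did 36.0% of the start sites of protein-coding genes (6930 of 19252). Within 500 bp, 0 of the 4 members with a promoter peak had a match and 6 of the 6 without one did, and 10.7% of all start sites did. The nearest match lay 644 bp upstream of E(spl)m7-HLH, 774 bp of E(spl)mdelta-HLH and 965 bp of E(spl)m2-BFM, and E(spl)m3-HLH had none within 1000 bp. Among members without a promoter peak it lay 83 bp upstream of E(spl)m4-BFM, 146 bp of E(spl)m5-HLH, 199 bp of E(spl)m8-HLH, 269 bp of E(spl)mgamma-HLH, 292 bp of E(spl)mbeta-HLH and 340 bp of E(spl)malpha-BFM. The 2 sets of distances did not overlap, and at each of the 4 genes the promoter summit lay between the start and the nearest match. The window of 500 bp was chosen after the peaks were seen. The split holds for promoter peaks of the IDR list and of the strongest peaks of replicate 1. In the strongest peaks of replicate 4, E(spl)mbeta-HLH, with a match 292 bp upstream, had a promoter peak and E(spl)m2-BFM did not. In the pooled list E(spl)mbeta-HLH, E(spl)m8-HLH and E(spl)m4-BFM, each with a match within 500 bp, had promoter summits too. Within 1000 bp a match was present at 3 of the 4 members with a promoter peak, and within 250 bp at 3 of the 6 without one.

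**Figure D3:**
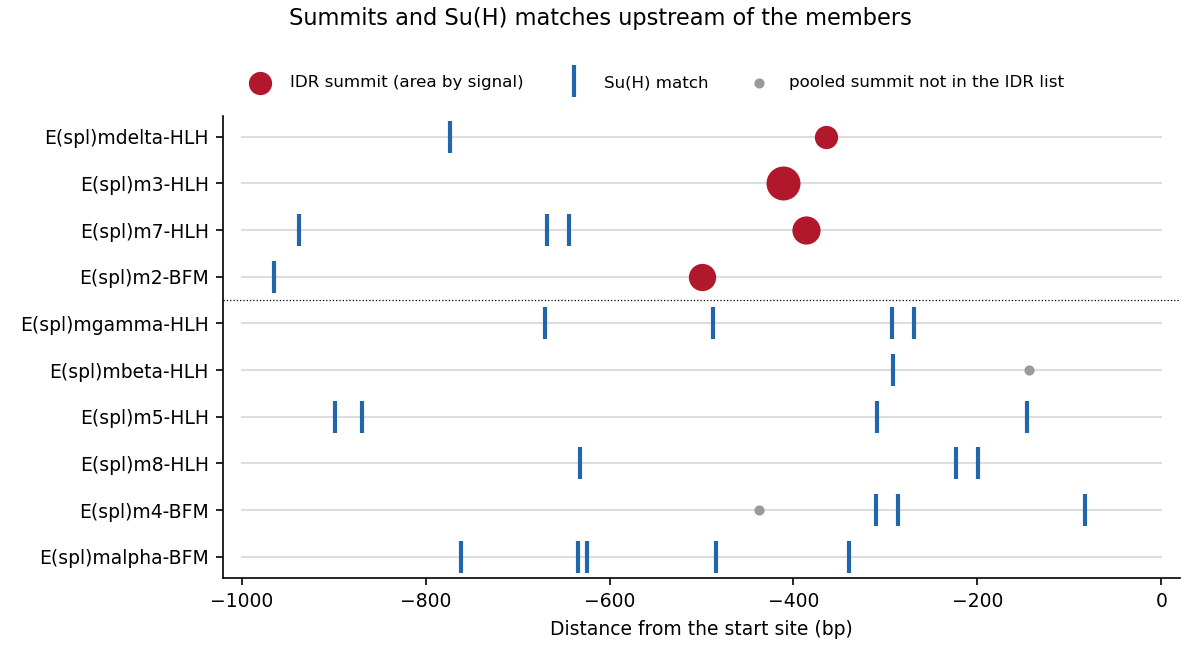
IDR summits (red, area by signal), pooled summits outside the IDR list (grey) and Su(H) matches (blue bars) by distance in bp upstream of the start site, over 1000 bp and one row per member, with the 4 members that have a promoter peak above the dotted line and the 6 without below. Above the line the summits nearest the start, 365 to 499 bp upstream, have no blue bar between them and the start; below it the nearest blue bars lie 83 to 340 bp upstream.

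The inverted pairs of Su(H) matches of 6 members are described, without a count over the complex. An inverted pair is a match on the gene's strand followed by a match on the other strand, with their starts 20 to 30 bp apart. Such facing pairs of Su(H) sites are a known feature of Notch-responsive enhancers of this complex. The pairs are shown on the strand of the gene, 5' to 3', with both matches in capitals.
E(spl)mdelta-HLH, chr3R:25996283-25996311, plus strand: GTGGGAAtgtctccagtacactTTCTCAC
E(spl)m7-HLH, chr3R:26036370-26036400, plus strand: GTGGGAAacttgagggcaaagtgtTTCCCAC
E(spl)mgamma-HLH, chr3R:25999558-25999588, plus strand: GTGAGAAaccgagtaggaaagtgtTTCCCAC
E(spl)m5-HLH, chr3R:26030598-26030633, minus strand: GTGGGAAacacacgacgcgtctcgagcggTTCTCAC
E(spl)m8-HLH, chr3R:26040017-26040047, plus strand: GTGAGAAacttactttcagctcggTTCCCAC
E(spl)m4-BFM, chr3R:26024859-26024889, minus strand: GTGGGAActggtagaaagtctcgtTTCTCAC
The spacing of starts was 24 bp at E(spl)m7-HLH, E(spl)mgamma-HLH, E(spl)m8-HLH and E(spl)m4-BFM, 22 bp at E(spl)mdelta-HLH and 29 bp at E(spl)m5-HLH. Outside the members, 5 protein-coding genes had such a pair within 2000 bp upstream of a start. These genes, named although they were picked after the values were seen, were gro, whose pair is the one upstream of E(spl)m8-HLH, and Tgi, amd, kis and mRpL10. Of these gro, Tgi and kis had a promoter peak, as did 24.6% of all protein-coding genes. The 5 genes are too few to set against that share.

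The same members also divided by base composition upstream. The lowest GC content of any 101 bp window within 500 bp upstream was 15.8% at E(spl)mdelta-HLH, 17.8% at E(spl)m2-BFM and 18.8% at both E(spl)m3-HLH and E(spl)m7-HLH. It was 34.7% at E(spl)m5-HLH, 36.6% at E(spl)m4-BFM, 39.6% at E(spl)m8-HLH, 41.6% at E(spl)malpha-BFM, 42.6% at E(spl)mbeta-HLH and 43.6% at E(spl)mgamma-HLH. No member lay between 18.8% and 34.7%, and the 4 genes below this gap were the 4 with a promoter peak in the IDR list. In the strongest peaks of replicate 4, E(spl)mbeta-HLH, at 42.6%, had a promoter peak and E(spl)m2-BFM, at 17.8%, did not. Over all start sites the median was 23.8%. An IDR summit within 500 bp upstream was present at 33.6% of the 5403 start sites whose lowest window was under 20% GC, at 23.4% from 20 to 25%, at 14.0% from 25 to 30%, at 7.20% from 30 to 35%, at 3.97% from 35 to 40% and at 2.40% above. Low GC content upstream thus went with summits over the whole genome, as it did at the complex in the IDR list. The lowest window was sought in the same 500 bp in which the summit was counted. IDR summit windows themselves had a median GC content of 28.7%, so the 2 measures are not independent. This GC measure was not among those planned.

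Over the whole genome start sites with a Su(H) match within 500 bp upstream had a summit slightly more often, the reverse of the complex. An IDR summit was present within 500 bp upstream at 22.3% of the 2063 start sites with a match there and at 19.6% of those without. Among the 2831 start sites whose lowest window had 34% GC or more, as at the 6 members without a promoter peak, 3.67% had a summit, and among the 338 of these with a Su(H) match 5.03% did. At the complex the position of Su(H) matches and the GC content split the 10 members in the same way, so the 2 cannot be told apart there, and whether either bears on gem binding was not tested.

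**Figure D4:**
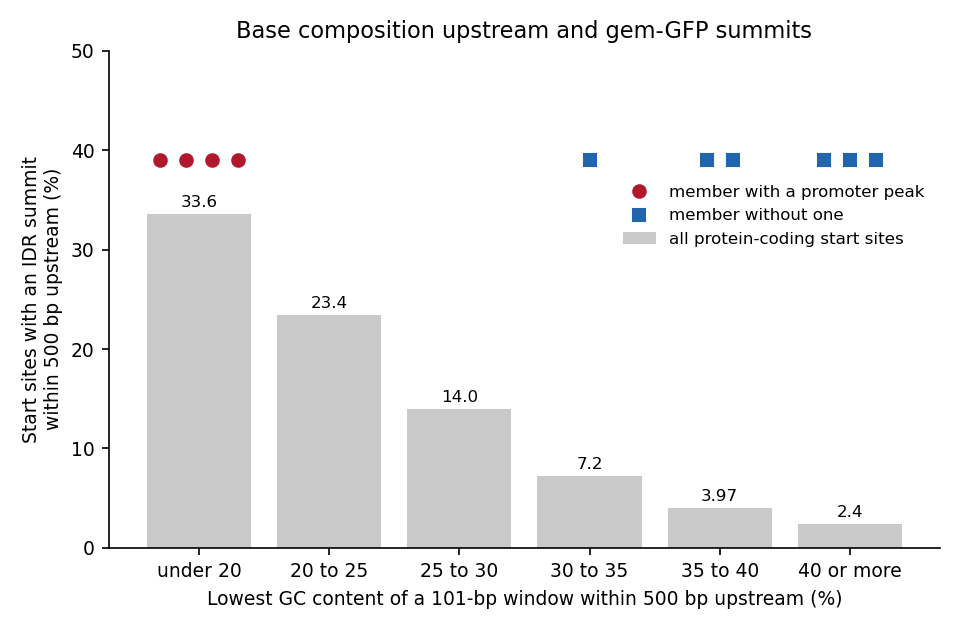
Share of protein-coding start sites with an IDR summit within 500 bp upstream (bars, in %), by the lowest GC content of a 101-bp window within 500 bp upstream (in %). The bars fall from 33.6% to 2.40%; the 4 members with a promoter peak (red circles) are in the class under 20% and the 6 without (blue squares) in the classes from 30% up, and the height of these symbols has no meaning.

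Other genes of the Notch pathway were read from lists of named genes with the same rules. Of 16 core genes, 9 had a promoter peak, against 24.6% of all protein-coding genes, and 11 an IDR peak in the gene or within 2000 bp, against 43.9%. Several of these genes are much longer than the members, mam among them (chr2R:13991203-14060356), so the shares are not of like genes. The highest signals were 3925 at mam, the coactivator, which had 20 IDR peaks, 3498 at numb, an inhibitor of Notch in asymmetric divisions, 3105 at aph-1, a subunit of the protease that cleaves Notch, and 2873 at N, the receptor. No IDR peak was found at Su(H), at its corepressor H, or at Psn, Nct and pen-2, genes of further subunits of that protease. Added to these after the values were seen, neur had 1947 and its substrate Delta 439, the partners of the Bearded family. The Su(H) gene thus lacked an IDR peak while the genes of the receptor and the coactivator had strong ones, but both of those genes are much longer than Su(H).

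Among the relatives of the members, the proneural genes and their partner da, no gene reached the signal of 2250. That value was the lowest among the 6 members with an IDR peak. Of 5 other bHLH-Orange repressor genes, 3 had an IDR peak in the gene or within 2000 bp, against 43.9% of all protein-coding genes. The signals were 1214 for the clock gene cwo, 761 for Sidpn and 209 for the pair-rule gene hry, and dpn and Hey had none. The cwo value rested mostly on replicate 1, at 1152, against 109 in replicate 4. Of the Bearded complex on arm 3L, the other cluster of Bearded family genes, 4 genes were matched to the annotation. None of them had a promoter peak, against 24.6% of all protein-coding genes. Brd and Tom shared a peak of 280, BobA had 203 and Ocho had none. BobB and BobC were listed but matched no gene name. In a list of 8 genes, made of proneural genes and their partner da, da had a promoter peak of 1611, with 1118 in replicate 1 and 497 in replicate 4. The other 7, among them ac and sc, had no IDR peak, so 1 of 8 had a promoter peak, against 24.6% of all protein-coding genes. Lists this short do not let such counts be told apart from the shares over all genes. The strongest peak of each gene with any had a median signal of 2848 over 6 members of the complex, 1510 over 11 core genes, 761 over 3 other bHLH-Orange genes and 280 over 3 Bearded complex genes. It was 912 over all 6121 protein-coding genes with a peak, with quartiles of 439 and 1775. All 6 members were above the upper quartile, although the E(spl)m8-HLH value is the peak in gro and the E(spl)mdelta-HLH value that in CG43116.

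Next to the members, gro had the peaks of 3481 and 923 already given, Kaz-m1 had a promoter peak of 1083, and E(spl)m6-BFM had no IDR peak. The list of genes near the complex shares its peaks and adds no separate sites except the Kaz-m1 promoter.

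**Figure D5:**
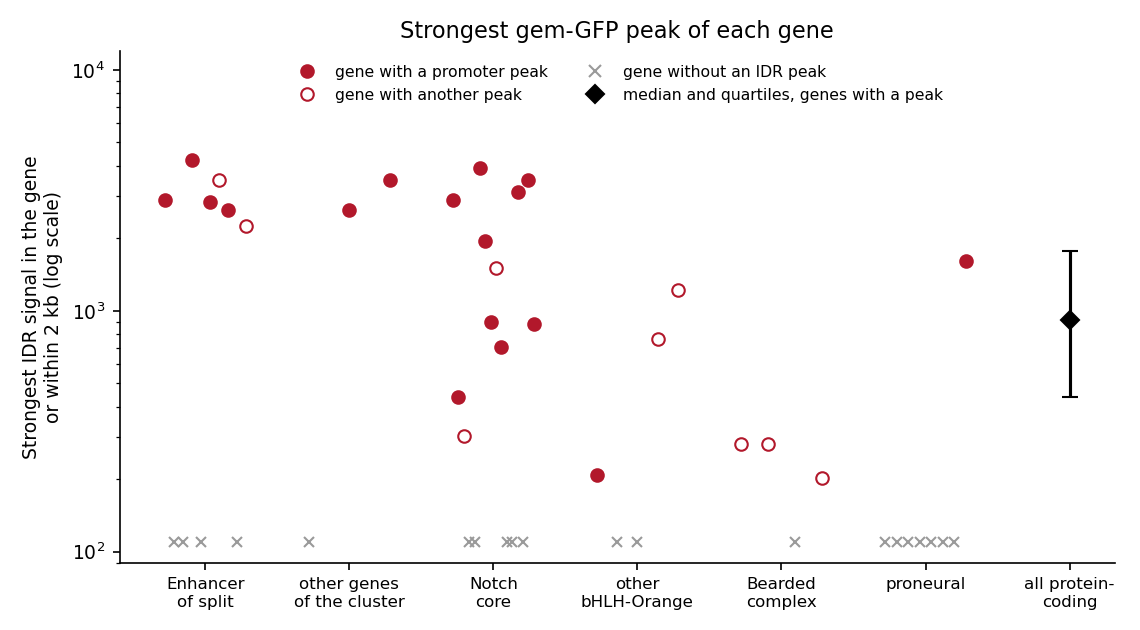
Highest IDR signal in each gene or within 2000 bp (log scale) for the complex and 5 other lists of genes; filled circles are genes with a promoter peak, open circles genes with other peaks only, crosses genes without an IDR peak, placed at a fixed height. The 6 members with a peak lie from 2250 to 4217, all above the quartile range of all protein-coding genes with a peak (diamond at 912, bar from 439 to 1775).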

How the data were processed

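Per the listings deposited with the samples, peaks were called on assembly dm6 for replicate 1, replicate 4 and both together, each with a control alignment as further input, and the IDR list was made from these. The aligner, the peak caller, thresholds and versions are not given in the sources used here. The deposited signal value per peak has no stated scaling. It was compared between peaks of the same list, except that signals of replicate 1 and replicate 4 were set side by side and divided. Those ratios depend on the unknown scaling of the lists. The deposited −log10 q-value was given only once. Read depth is unknown.

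Summits were placed on gene models of Ensembl release 115 (BDGP 6.54) and on the RefSeq release 6 sequence, whose arms no peak exceeded, over 6 arms, with 1-based coordinates. Replicate summits were matched within 100 bp. Signs of distance follow the gene's strand. Of each other list, up to 4 genes with the highest IDR signal and up to 2 without a peak were named. Further core genes were added after the values were seen. The members, lists and motifs were chosen with earlier results of these data known, and E(spl)m1, Dl, Side and nct were read as Kaz-m1, Delta, Sidpn and Nct. Upstream windows were searched 500 and 2000 bp from each TSS. Some sequence matches are not reported here. Alternatives changed the list, the replicate, the distances and the windows. Functions were tested on simulated data in Python 3.11.15 with numpy 2.4.6 and pandas 2.3.3.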

Additional observations from a re-analysis of the deposited data

How the results depend on the processing

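Counts at the complex depended on the list and on the distances allowed. In the pooled list, 7 members had a promoter peak, 10 had a peak in the gene or within 2000 bp, the complex held 25 peaks at a density of 6.12 per 10 kb, their median rank was 44.8% of the list, and 2 windows held a motif. In the 5522 strongest IDR peaks the median rank was 10.9%, by construction of a shorter list, and 10 peaks remained. With a TSS limit of 250 bp 0 members had a promoter peak. With 1000 bp around the genes the complex held 6 peaks, and with the nearest TSS taken from all annotated genes 4. With 5000 bp, 9 members had a peak, counted for each gene and so partly shared, among them E(spl)mgamma-HLH with 2, E(spl)mbeta-HLH with 1 and E(spl)m4-BFM with 2, and the complex held 12 peaks. A motif window of 100 bp to either side gave 1 match. The Su(H) counts, added after the data were seen, were 3 within 1000 bp for members with a promoter peak and 3 within 250 bp for those without. Leaving out each replicate in turn gave 4 and 4 members with a promoter peak, 6 to 7 with a peak within 2000 bp, 11 to 12 peaks, 2.53 to 2.74 per 10 kb and a median rank of 6.26% to 9.75%, the last without replicate 1. Adding E(spl)m6-BFM, Kaz-m1 and gro as members gave 12 peaks, and adding GTGTGAA as a further Su(H) form left both counts as they were. Where no sentence names a cause, it was not tested. No paired analysis was possible because there is 1 group. With 2 replicates, missing coverage and no untagged strain limit what these lists show.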
